A study of Homo sapiens with 5 samples.

Results

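The vacuolar ATPase genes of this study were followed from poly(A) site to poly(A) site. They are VMA21, which encodes an assembly factor of the pump, the accessory subunit genes ATP6AP1 and ATP6AP2, and 6 genes of the V1 sector, ATP6V1A, ATP6V1B2, ATP6V1C1, ATP6V1D, ATP6V1E1 and ATP6V1H. These 9 genes, of 31173 listed, were taken by name from the deposited table of reads per poly(A) site. The rule uses gene names alone, but the genes were picked with earlier results of these data known. They held 166 distinct sites of 272248 in all, and 9232 reads over the 5 libraries. All libraries came from HEK293T, a human embryonic kidney cell line, grown in medium with 5% serum. Poly(A) site sequencing reads begin at the 3′ end of an mRNA, next to its poly(A) tail, so each read places an end and each count measures its use. The CFIm68 knockout group was 2 cell lines that lack CFIm68, the product of CPSF6. The CFIm59 knockout group was 2 cell lines that lack CFIm59, the product of CPSF7, and the control was 1 library of wild type HEK293T. Both knockouts were made with CRISPR/Cas9, and the labels do not say whether each line grew from 1 cell.

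The vacuolar ATPase is a rotary proton pump that acidifies lysosomes, endosomes and the Golgi. Its cytosolic V1 sector hydrolyses ATP, and its membrane sector, V0, carries protons; VMA21 is a chaperone of the endoplasmic reticulum that helps V0 assemble, and variants of the gene cause an X-linked myopathy with excessive autophagy. CFIm is a 3′ end processing factor whose small subunit, CFIm25, binds UGUA in the RNA, and CFIm59 or CFIm68 joins it as the larger subunit. A gene with several poly(A) sites in its last exon makes mRNAs with the same protein and 3′ untranslated regions of different length: the proximal site gives the short form and the distal site the long form.

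Sequences are shown for the ends of VMA21, the gene with the largest change in proximal share among these genes. It lies on chromosome X, plus strand; the proximal site lay at hg19 position 150573632 and the distal site, 4203 nt downstream, at 150577835. Both are classed as last exon sites. Capitals mark the poly(A) signal (AATAAA or ATTAAA) and TGTA, the DNA form of the CFIm25 motif. Bases are those of the GENCODE v29 transcript that carries the same identifier as the deposited sites. The last base of that transcript was taken as the distal site and the proximal window was set 4203 nt before it, so windows may be off by 1 nt.
VMA21 proximal site, last 30 nt: gAATAAAgttgaaagaacatgttaaagtca
VMA21 distal site, last 30 nt: atgtcATTAAAaaaagtgttTGTAgtgcta
VMA21, 80 to 51 nt before the distal site: tttTGTAttcactatatTGTAgctTGTAat
The first base of the poly(A) signal lay 29 nt before the proximal site (AATAAA) and 25 nt before the distal site (ATTAAA). In the 100 nt before the distal site TGTA occurred 6 times, with first bases 77, 63, 56, 49, 41 and 10 nt before the site. In the 100 nt before the proximal site it occurred 0 times; the nearest copy upstream was 159 nt away. The search covered the transcript's strand only. Over the longest transcripts of 19668 coding genes, 64.1% held AATAAA or ATTAAA in their last 30 nt, 51.5% held at least 1 TGTA in their last 100 nt, and 9 transcripts (0.0458%) held 6 or more. A match of letters is a description and shows no binding.

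Library totals were 2727728 and 2078376 reads for CFIm68 knockout lines 1 and 2, 1673687 and 2585923 reads for CFIm59 knockout lines 1 and 2, and 2924266 reads for the control. CPSF6 fell to 46.8 ± 1.58 CPM in the CFIm68 knockout (SD, n = 2), against 120 CPM in the control (log2 -1.35, edgeR adjusted p = 0.000512). CPSF7 stood at 62.0 ± 9.15 CPM in the CFIm59 knockout and 59.8 CPM in the control, so its 3′ reads do not check that label; in the CFIm68 lines it had 128 and 204 CPM and rose against the control (log2 1.47, edgeR adjusted p = 0.000925). All 7 markers of HEK293T held reads, and their sum was 672 and 851 CPM in the CFIm68 lines, 886 and 895 CPM in the CFIm59 lines and 1399 CPM in the control. VIM made up most of that sum, with 722 and 499 CPM in the CFIm68 lines, 778 and 728 CPM in the CFIm59 lines and 1275 CPM in the control. NEFM, PAX2 and SALL1 were higher in the CFIm68 than in the CFIm59 knockout (log2 1.68, 1.33 and 0.94, edgeR adjusted p of 2.57e-05, 0.0308 and 0.0351), and 1 marker was lower. Of all genes, 9.46% were called higher and 10.3% lower between the knockouts. Against the control, 0 markers rose and 3 fell in the CFIm68 knockout, and 0 rose and 2 fell in the CFIm59 knockout. In these comparisons 2.03% and 6.87% of all genes were called lower. Epithelial markers summed to 119 and 110 CPM in the CFIm68 lines, 101 and 57.2 CPM in the CFIm59 lines and 61.3 CPM in the control. Of these, KRT8 rose in the CFIm68 knockout (log2 1.79, edgeR adjusted p = 0.00207), and EPCAM rose in the CFIm59 knockout, to 48.0 and 10.4 CPM in its lines, against 4.51 CPM in the control (log2 2.61, edgeR adjusted p = 0.00101). Blood markers summed to at most 4.87 CPM and fibroblast markers to at most 15.3 CPM. Liver markers summed to 26.7 CPM in the control, nearly all from ALB, and to 4.14 CPM or less in the knockout lines. The part of these marker differences in the results was not tested. The control was a single library, and the tests assume that it varies like the knockout lines.

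Of the 166 sites, 125 held a read and 32 held 10 or more. The 79 last exon sites took nearly all reads of 8 genes; 74 sites were in introns and 13 in upstream exons. ATP6V1D was the exception, with 12.1% and 16.0% of its reads at intron sites in the CFIm68 lines, 44.9% and 38.1% in the CFIm59 lines and 24.3% in the control. For 7 genes the pair of sites with most reads entered the test of site use. ATP6AP1 had a single site of 10 or more reads, and the weaker site of ATP6V1H averaged under 5 reads per library.

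VMA21 had the largest change in proximal share of the 7 genes, 56.9 percentage points between the CFIm68 knockout and the control. Of the reads at its pair, the proximal site took 86.1% and 78.0% in the CFIm68 lines, 14.3% and 11.4% in the CFIm59 lines, and 25.2% in the control. These shares rest on 995, 678, 223, 402 and 548 reads in the same order, and the control's Wilson 95% interval was 21.7 to 29%. Both CFIm68 lines lay far above the control and both CFIm59 lines below it, with no overlap of the groups. Against the control the proximal to distal ratio rose in the CFIm68 knockout by log2 3.80 (SE 0.39, 95% interval 3.02 to 4.58, edgeR adjusted p = 7.75e-12). The change in points was larger than that of 98.1% of the 5869 genes tested. For the CFIm59 knockout the log2 value was -1.21 (SE 0.41, interval -2.03 to -0.39, edgeR adjusted p = 0.0619). That call turns on the processing: leaving out CFIm68 line 1 or 2 gave adjusted p of 0.0151 and 0.0155, in a range of 0.0151 to 0.449 over 9 alternatives. Between the knockouts the difference was log2 5.01 (SE 0.34, edgeR adjusted p = 2.39e-19).

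**Figure D1:**
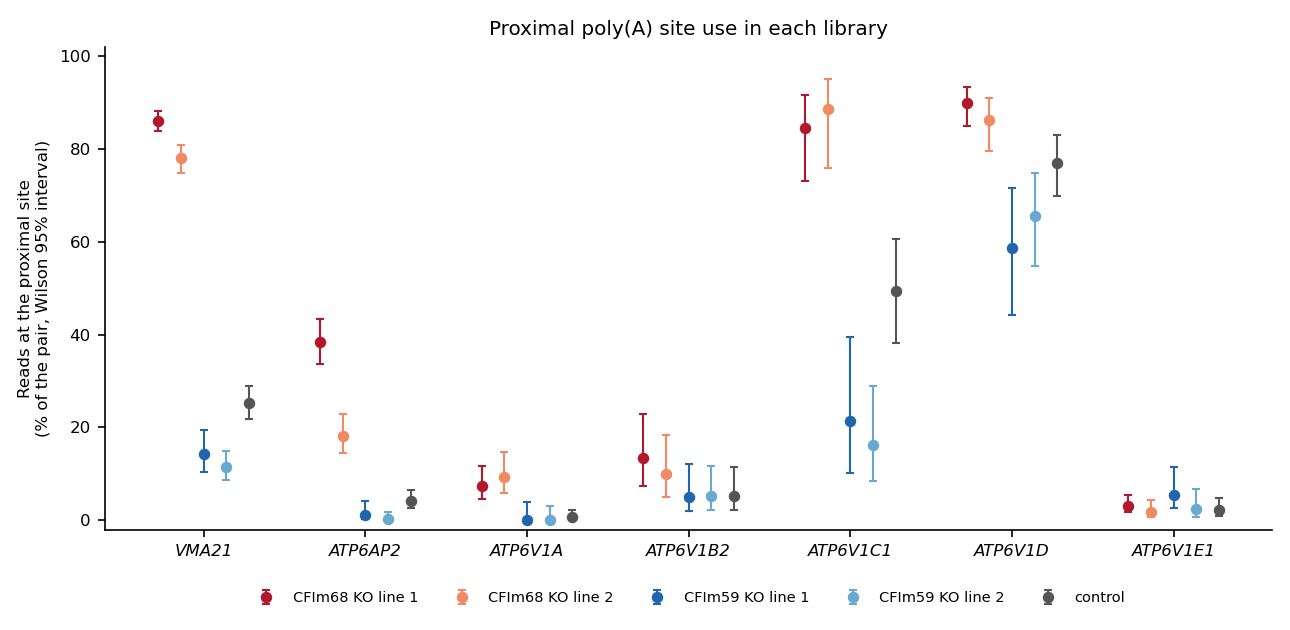
Share of reads at the proximal site of the pair (y axis, percent) for the 7 genes with a pair (x axis), with 1 point per library and Wilson 95% intervals, which cover counting error only. VMA21 stands at 86.1% and 78.0% in the CFIm68 knockout, 14.3% and 11.4% in the CFIm59 knockout and 25.2% in the control, while ATP6V1E1 stays at or below 5.50% in every library.

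Reads at both ends of VMA21 differed between the groups. Scaled to library size, the proximal site held 298 and 235 CPM in the CFIm68 lines, 19.2 and 19.1 CPM in the CFIm59 lines and 51.9 CPM in the control. The distal site held 48.0 and 66.1 CPM in the CFIm68 lines, 115 and 147 CPM in the CFIm59 lines and 154 CPM in the control. The CFIm68 lines were the highest at the proximal end and the lowest at the distal end. Weighted by reads, the mean end lay 3622 and 3292 nt before the last site in the CFIm68 lines, 627 and 485 nt in the CFIm59 lines and 1078 nt in the control. Weaker sites were described where they had 10 or more reads in all. Those that follow reached this only through the CFIm68 lines, so the order of the groups at them is no support. The site 55 nt upstream of the proximal site, at 150573577, had 7 and 8 reads in the CFIm68 lines, 0 and 0 in the CFIm59 lines and 2 in the control. Those at 150573833 and 150573916 had 13 and 5, and 5 and 13, reads in the CFIm68 lines, against 0 in both CFIm59 lines and at most 1 in the control. The site at 150575903 had 5 and 8 reads in the CFIm68 lines, 4 and 1 in the CFIm59 lines and 2 in the control. Between the knockouts its share gave log2 -0.15 (edgeR adjusted p = 0.981). An intron site at 150572249 had 9 and 8 reads in the CFIm68 lines, 1 and 0 in the CFIm59 lines and 1 in the control; it did not pass the test in any comparison (edgeR adjusted p of 0.346, 1 and 0.158).

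**Figure D2:**
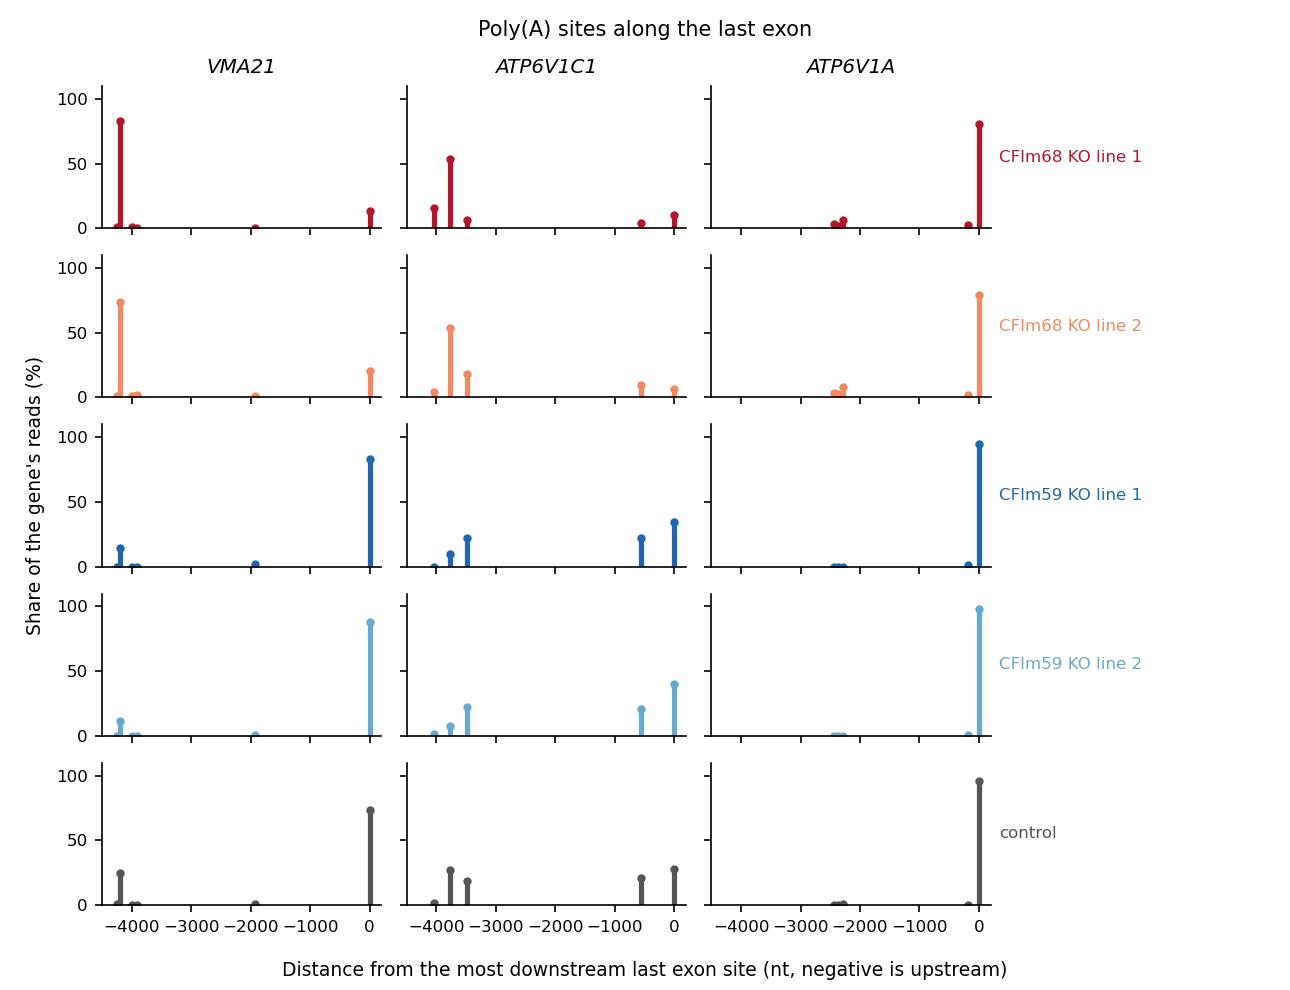
Share of a gene's reads (y axis, percent) at each last exon site with 10 or more reads, by distance from the most downstream such site (x axis, nt), for 3 genes in columns and the 5 libraries in rows. In VMA21 the tall line stands at 4203 nt before the last site in both CFIm68 knockout lines and at the last site in the CFIm59 knockout lines and the control.

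ATP6AP2 and ATP6AP1 encode accessory subunits that sit in the membrane with V0; ATP6AP2 is also known as the prorenin receptor. The pair of ATP6AP2 (chromosome X, plus strand, last exon sites at 40465135 and 40465886) lay 751 nt apart. Its proximal site took 38.4% and 18.3% in the CFIm68 lines, 1.18% and 0.316% in the CFIm59 lines and 4.11% in the control (Wilson 95% interval 2.55 to 6.58%). The CFIm68 lines stood above all other libraries but differed from each other by more than they did in VMA21. In reads, the proximal site held 147 and 59 in the CFIm68 lines, 2 and 1 in the CFIm59 lines and 16 in the control. The ratio rose in the CFIm68 knockout against the control by log2 3.17 (SE 0.51, edgeR adjusted p = 1.25e-06). Loss of CFIm59 gave log2 -2.69 (SE 0.88, edgeR adjusted p = 0.0522). This too passed under some settings, with adjusted p of 0.043 without CFIm59 line 1, 0.0225 and 0.0223 without CFIm68 line 1 or 2, and a range of 0.0223 to 0.403 over 9 alternatives. Between the knockouts the difference was log2 5.85 (SE 0.60, edgeR adjusted p = 9.76e-13). ATP6AP1 ended at a single last exon site, at 153664862, with 99.3% and 100% of its reads in the CFIm68 lines and 100% in the others.

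ATP6V1A and ATP6V1B2 encode the nucleotide-binding subunits that form the head of V1, with the catalytic sites in the A subunit. ATP6V1A (chromosome 3, plus strand, last exon sites at 113528612 and 113530901, 2289 nt apart) was almost wholly distal. Its proximal site held 16 and 16 reads in the CFIm68 lines (7.34% and 9.36%), none in either CFIm59 line and 2 in the control (0.599%). A count of 0 allows a share of up to 3.26% in CFIm59 line 1 and 2.48% in line 2, at 3 reads per library. Of its 34 proximal reads, 32 were in the CFIm68 lines. The gene met the minimum of 5 reads per site on average only through them, so its calls to proximal are no support. The ratio rose in the CFIm68 knockout against the control by log2 3.81 (SE 0.81, edgeR adjusted p = 0.000148). With each CFIm59 line set at 3 proximal reads, the ratio was 3.18-fold higher in the CFIm68 than in the CFIm59 knockout. That value was not tested and leaves out the counting error of the CFIm68 reads. The fit between the knockouts used the counts of 0 as they were (edgeR adjusted p = 1.89e-05). A pair of weaker sites upstream, at 113528460 and 113528537, held 5 to 9 reads each in the CFIm68 lines, none in the CFIm59 lines and 1 each in the control. Both were described only because of reads in the CFIm68 lines, so the order of the groups at them is no support. ATP6V1B2 (chromosome 8, sites 1160 nt apart) used its proximal site for 13.3% and 9.88% in the CFIm68 lines, 4.94% and 5.21% in the CFIm59 lines and 5.15% in the control. The CFIm68 lines were the higher ones, on 10 and 8 proximal reads, and no comparison passed (log2 1.24, SE 0.76, edgeR adjusted p = 0.237 in the CFIm68 knockout against the control). The pair of ATP6V1B2 met the read minimum only through the CFIm68 lines, so this order is no support either.

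ATP6V1C1, ATP6V1E1 and ATP6V1H encode subunits that tie the head to the membrane sector, and ATP6V1D encodes part of the rotor shaft. ATP6V1C1 (chromosome 8, plus strand, last exon sites at 104081511 and 104085277) had a pair 3766 nt apart and changed in all 3 comparisons. Its proximal site took 84.5% and 88.6% in the CFIm68 lines, 21.4% and 16.3% in the CFIm59 lines and 49.3% in the control (Wilson 95% interval 38.2 to 60.5%). The groups did not overlap, and the control lay between the knockouts. These shares rest on few reads, 58 and 44 in the CFIm68 lines, 28 and 49 in the CFIm59 lines and 73 in the control. The ratio rose in the CFIm68 knockout by log2 2.68 (SE 0.61, edgeR adjusted p = 0.000354). It fell by log2 2.1 in the CFIm59 knockout (SE 0.62, edgeR adjusted p = 0.0266), a call that ended without CFIm59 line 1 (adjusted p = 0.0602) or line 2 (0.262), in a range of 0.00944 to 0.262. The difference between the knockouts was log2 4.78 (SE 0.59, edgeR adjusted p = 3.06e-10). With 5 sites of 10 or more reads, its reads spread along the last exon. The mean end lay 3222 and 3108 nt before the last site in the CFIm68 lines, 1415 and 1342 nt in the CFIm59 lines and 1924 nt in the control.

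**Figure D3:**
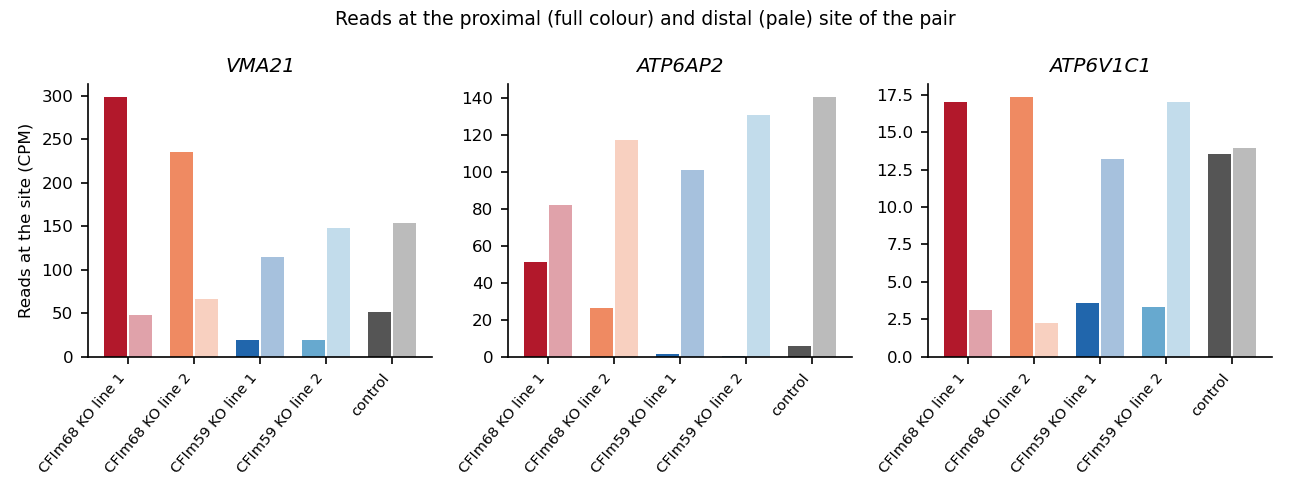
Reads at the proximal (full colour) and distal (pale) site of the pair in CPM (y axis, linear from 0, its own scale per gene) in the 5 libraries (x axis) for VMA21, ATP6AP2 and ATP6V1C1. In VMA21 the proximal bar is the taller in the CFIm68 knockout lines, at 298 and 235 CPM, and the distal bar is the taller elsewhere, at 154 CPM in the control.

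ATP6V1D (chromosome 14, minus strand) had its pair 200 nt apart, a last exon site at 67804789 and, downstream, a site classed as intronic at 67804589. The proximal site took 90.0% and 86.3% in the CFIm68 lines, 58.7% and 65.5% in the CFIm59 lines and 77.1% in the control. Again the control lay between the groups. Only the difference between the knockouts passed (log2 2.17, SE 0.43, edgeR adjusted p = 2.34e-05); against the control the log2 values were 1.18 in the CFIm68 knockout (adjusted p = 0.0537, or 0.031 without CFIm68 line 2) and -0.99 in the CFIm59 knockout (adjusted p = 0.235). Among last exon sites alone, the gene's pair became 67804789 and a site 500 nt upstream of it, and the difference between the knockouts was log2 -0.20 (edgeR adjusted p = 0.793). That upstream site, at 67805289, held 47 and 3 reads in the CFIm68 lines, so lines of 1 genotype differed there, against 8 and 6 reads in the CFIm59 lines and 31 in the control. ATP6V1E1 (chromosome 22, minus strand, sites 296 nt apart) ended almost wholly at its distal site, at 18074935. Its proximal share was 3.16% and 1.75% in the CFIm68 lines, 5.50% and 2.36% in the CFIm59 lines and 2.21% in the control. The range of the CFIm68 lines overlapped with the CFIm59 lines and held the control. No comparison passed; against the control the log2 value in the CFIm68 knockout was 0.22 (95% interval -1.23 to 1.67, edgeR adjusted p = 0.867). The pair of ATP6V1H lay 117 nt apart, and its main site took 90.4% and 88.4% of the gene's reads in the CFIm68 lines, 89.6% and 84.1% in the CFIm59 lines and 94.3% in the control.

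Against the control, 4 of the 7 tested genes changed to the proximal site in the CFIm68 knockout (VMA21, ATP6AP2, ATP6V1A and ATP6V1C1) and 0 to the distal site. ATP6V1A and ATP6V1B2 met the read minimum only through the CFIm68 lines; without both, the count was 3 of 5, and 4 of 5 between the knockouts. Over all 5869 genes tested, 25.3% were called to proximal and 3.14% to distal. These genes were not limited to those that met the minimum without the CFIm68 lines. The counts of 5 and the backgrounds are therefore on unlike sets of genes. The members were also picked with earlier results of these data known. The median log2 change was 2.68 over the 7 genes, with ATP6V1A and ATP6V1B2 included, and 0.61 over all. No gene went to distal at an unadjusted p under 0.05 or by DESeq2 either. With CFIm59 lost, 1 of 7, ATP6V1C1, changed to distal and 0 to proximal, where 5.38% and 1.02% of all genes were called. With DESeq2 the count to distal was 0, and at an unadjusted p under 0.05 in edgeR it was 4 to distal and 0 to proximal. The median log2 value was -1.21 over the 7 genes, -1.10 without ATP6V1A, which had no proximal read there, and -0.34 over all. Between the knockouts, 5 of 7 were more proximal in the CFIm68 knockout and 0 more distal, against a background of 40.7% and 6.2%; DESeq2 gave the same counts, and at an unadjusted p under 0.05 they were 6 and 0. The median was log2 4.78, or 2.17 with the CFIm59 lines of ATP6V1A set at 3 proximal reads each, and 0.89 over all genes. The comparisons with the control share 1 control library, so their values are not independent.

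**Figure D4:**
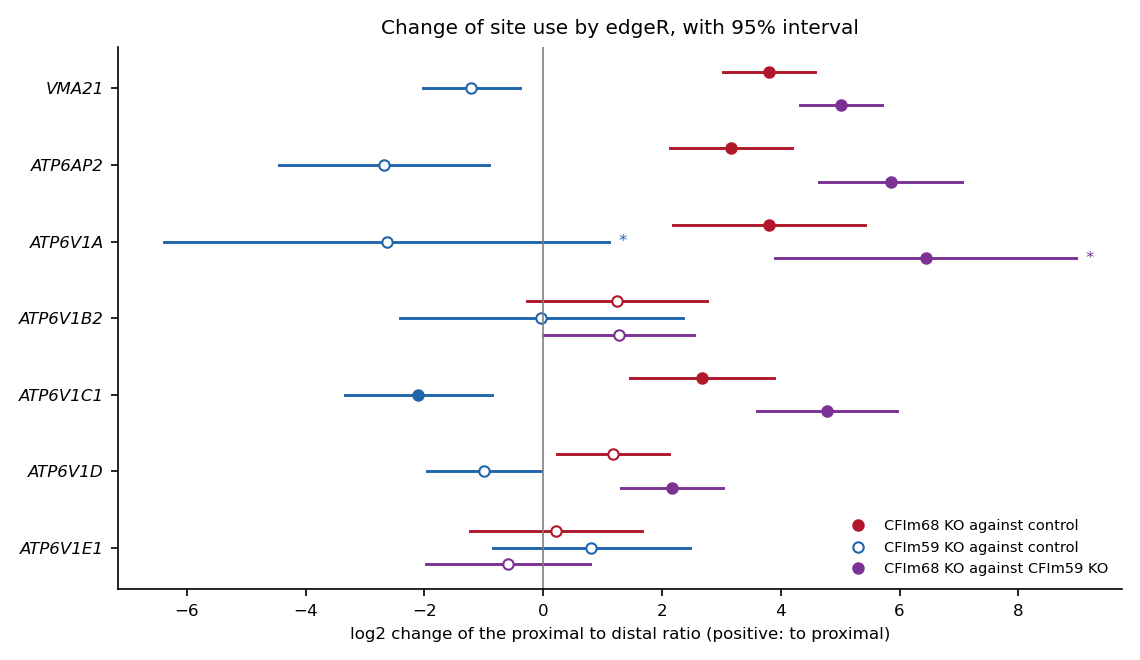
Log2 change of the proximal to distal ratio (x axis, positive to proximal) for 7 genes (y axis) with 95% intervals from edgeR; filled points have an adjusted p under 0.05 and asterisks mark fits in which the CFIm59 knockout had no proximal read. VMA21, ATP6AP2, ATP6V1A and ATP6V1C1 have filled points to the right of 0 for the CFIm68 knockout against the control, at 3.80, 3.17, 3.81 and 2.68. The pairs of ATP6V1A and ATP6V1B2 met the read minimum only through the CFIm68 lines.

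Each site was also tested against the other sites of its gene, which adds sites outside the pairs. Of the 31 sites tested, the CFIm68 knockout had a higher share than the control at 3 (proximal sites of VMA21, ATP6AP2 and ATP6V1A) and a lower share at 1 (the distal site of VMA21), where 3.06% of 37295 sites were called higher and 3.08% lower. The distal site of VMA21 took 13.3% and 20.7% of the gene's reads in the CFIm68 lines, against 73.7% in the control (log2 -2.15, SE 0.30, edgeR adjusted p = 1.69e-07). In the CFIm59 knockout against the control, 0 of 31 passed in edgeR, and 3, all lower, had an unadjusted p under 0.05; 0.0885% of all sites were called higher and 0.185% lower. Between the knockouts 10 sites had a higher and 4 a lower share in the CFIm68 knockout, in 5 genes, where 11% of all sites were called higher and 8.91% lower. Of the 10 higher sites, 7 (3 each in VMA21 and ATP6V1A and 1 in ATP6V1C1) reached the minimum of 10 reads only through the CFIm68 lines, as did the site of ATP6V1A called against the control, so their calls are no support; the other 3 are the proximal sites of VMA21, ATP6AP2 and ATP6V1C1. In ATP6V1C1 the CFIm68 knockout had higher shares at 104081238 and 104081511 and lower ones at 104084717 and 104085277. The call at 104081238, with 14 and 3 reads in the CFIm68 lines, ended without CFIm68 line 1 (adjusted p = 0.275). That at 104084717 ended without CFIm68 line 1 (0.243), CFIm59 line 1 (0.0919) or CFIm59 line 2 (0.0989). The fourth lower site, at 67804589 in ATP6V1D, lost its call without the same lines (0.0668, 0.0664 and 0.111). The ATP6V1C1 site at 104081790, took 6.59% and 17.8% in the CFIm68 lines, 21.9% and 22.5% in the CFIm59 lines and 18.2% in the control (edgeR adjusted p = 0.201 between the knockouts). Without CFIm59 line 1 or line 2 the higher sites numbered 5 each.

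Reads were then summed over the sites of each gene. These are bulk cultures, in which a change per cell and a change in the share of cells cannot be told apart, and read counts at 3′ ends were not scaled by length. VMA21 stood at 361 and 320 CPM in the CFIm68 lines, 137 and 167 CPM in the CFIm59 lines and 209 CPM in the control. The CFIm68 lines were above and the CFIm59 lines below the control. Against the control neither passed (log2 0.70, SE 0.25, edgeR adjusted p = 0.101 in the CFIm68 knockout, and log2 -0.45, SE 0.24, edgeR adjusted p = 0.221 in the CFIm59 knockout). The level was higher in the CFIm68 than in the CFIm59 knockout (log2 1.15, SE 0.20, edgeR adjusted p = 2.23e-05). With library totals in place of TMM scaling, the value against the control was log2 0.94 (adjusted p = 0.0294); that scaling also moved the median of all genes to log2 0.26, against 0.02.

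In the CFIm68 knockout 0 of 9 genes passed against the control, with edgeR or DESeq2, where 1.59% of 14636 genes were called higher and 2.03% lower; at an unadjusted p under 0.05 edgeR had 1 higher (VMA21) and 2 lower (ATP6V1A and ATP6V1C1). The median log2 value was 0.03 over the 9 genes and 0.02 over all. With CFIm59 lost, 3 of 9 fell and 0 rose, against a background of 6.87% lower and 6.98% higher, with a median of -0.45 over the 9 genes and 0.02 over all. At an unadjusted p under 0.05 edgeR likewise had 0 higher, and DESeq2 called 0 higher and 1 lower. ATP6V1A had 58.2 and 51.0 CPM in the CFIm59 lines, against 130 CPM in the control (log2 -1.26, SE 0.25, edgeR adjusted p = 0.000334). ATP6V1D had 41.4 and 43.5 CPM there, against 80.5 CPM (log2 -0.92, SE 0.27, edgeR adjusted p = 0.015). ATP6V1E1 had 67.8 and 57.6 CPM, against 105 CPM (log2 -0.74, SE 0.26, edgeR adjusted p = 0.0462). The CFIm59 lines of these 3 genes lay below the control, which adds no support, since the genes were singled out by their calls in the same lines. Without CFIm59 line 1 or line 2, the calls of ATP6V1D (adjusted p of 0.0794 and 0.063) and ATP6V1E1 (0.0855 and 0.257) ended. The 360 tested genes of chromosome 22, where ATP6V1E1 lies, had a median log2 of -0.39 in the same comparison; the part of this shift in the result was not tested. On chromosomes 3 and 14 the medians were -0.18 and -0.14. On chromosome X, with VMA21, ATP6AP1 and ATP6AP2, the median was -0.21 over 520 genes, and on chromosome 8 it was 0.13. Between the knockouts the medians were log2 0.11 on chromosome X and -0.21 on chromosome 8. The part of these shifts in the levels was not tested.

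Between the knockouts, 5 of 9 genes were higher in the CFIm68 knockout (VMA21, ATP6AP1, ATP6V1A, ATP6V1D and ATP6V1E1) and 0 lower, where 9.46% of all genes were called higher and 10.3% lower. DESeq2 called 3 higher and 0 lower, and at an unadjusted p under 0.05 edgeR had 5 higher and 1 lower. The median log2 difference was 0.68 over the 9 genes and 0.00138 over all. ATP6AP1 had 46.6 and 26.2 CPM in the CFIm68 lines, 20.4 and 15.3 CPM in the CFIm59 lines and 25.6 CPM in the control; CFIm68 line 2 lay close to the control. Its difference between the knockouts was log2 1.06 (SE 0.29, edgeR adjusted p = 0.00536), and adjusted p was 0.312 without CFIm68 line 1 and 0.112 without CFIm59 line 2. ATP6V1A had 87.2 and 87.0 CPM in the CFIm68 lines, between the CFIm59 lines and the control (log2 0.68 against the CFIm59 knockout, SE 0.22, edgeR adjusted p = 0.0216). That call ended without CFIm59 line 1 (adjusted p = 0.0707), CFIm59 line 2 (0.23) or CFIm68 line 1 (0.0572). ATP6V1D had 94.9 and 69.3 CPM in the CFIm68 lines (log2 0.95, SE 0.23, edgeR adjusted p = 0.00168, or 0.0677 without CFIm68 line 1). ATP6V1E1 had 136 and 103 CPM (log2 0.94, SE 0.22, edgeR adjusted p = 0.00117, or 0.0538 without CFIm59 line 2), on a chromosome whose genes had a median difference of log2 0.43.

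In the main fit the remaining genes did not pass in any comparison of levels. ATP6AP2 stood at 136 and 145 CPM in the CFIm68 lines, 104 and 131 CPM in the CFIm59 lines and 148 CPM in the control. Site use and level therefore differed in it: the ratio of its ends moved by log2 3.17 in the CFIm68 knockout while its summed level gave log2 -0.08 (95% interval -0.57 to 0.42, edgeR adjusted p = 0.925). ATP6V1C1 stood at 31.6 and 32.4 CPM in the CFIm68 lines, 38.4 and 42.3 CPM in the CFIm59 lines and 49.6 CPM in the control, with the control highest. ATP6V1B2 had 26.8 and 36.4 CPM in the CFIm68 lines, 51.6 and 44.7 CPM in the CFIm59 lines and 38.7 CPM in the control. Its level tended lower in the CFIm68 than in the CFIm59 knockout (log2 -0.61, 95% interval -1.10 to -0.12, edgeR adjusted p = 0.0678). With the line number as a replicate block that difference passed (edgeR adjusted p = 0.0401). ATP6V1H had 40.0 and 42.2 CPM in the CFIm68 lines, 40.2 and 28.6 CPM in the CFIm59 lines and 39.5 CPM in the control. The range of its CFIm59 lines overlapped with the CFIm68 lines and held the control.

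**Figure D5:**
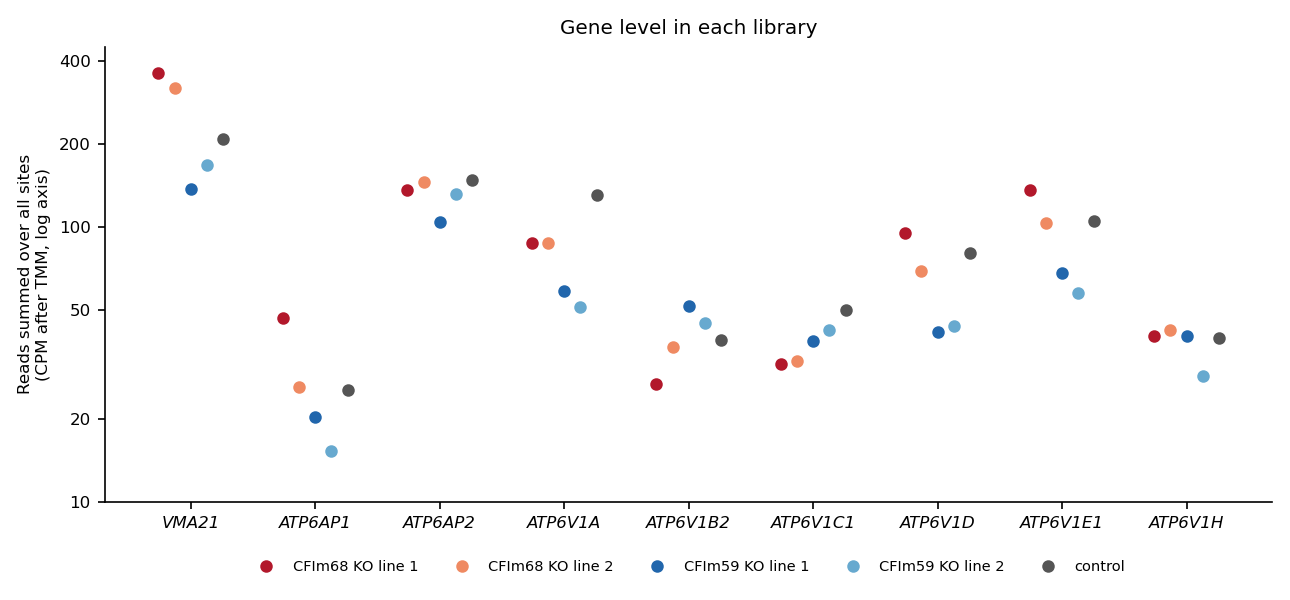
Reads summed over all sites of each gene in CPM after TMM (y axis, log scale) for the 9 genes (x axis), with 1 point per library. In ATP6V1A both CFIm59 knockout lines lie at 58.2 and 51.0 CPM under the control at 130 CPM, and in VMA21 the CFIm68 knockout lines, at 361 and 320 CPM, lie above it.

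The rest of the pump and its surroundings were counted from lists of genes. Of 7 other V1 subunit genes, 1 was tested for site use and 5 for level, and 0 passed in any comparison with edgeR or DESeq2. At an unadjusted p under 0.05 edgeR had 1, for site use between the knockouts, and 0 for level. Among 11 V0 subunit genes, 2 were tested for site use. ATP6V0A2, which encodes a membrane-sector subunit, used its proximal site for 84.2 ± 3.34% in the CFIm68 knockout, 30.7 ± 3.68% in the CFIm59 knockout (SD, n = 2 each) and 36.7% in the control. It changed to proximal in the CFIm68 knockout against the control (log2 3.19, edgeR adjusted p = 0.000106) and against the CFIm59 knockout (log2 3.59, edgeR adjusted p = 1.36e-06). Whether its pair met the read minimum without the CFIm68 lines was not tested, so these calls are no support. For level, 9 V0 genes were tested: against the control, 0 passed in the CFIm68 knockout with edgeR or DESeq2 (3 higher and 0 lower at an unadjusted p under 0.05), and in the CFIm59 knockout ATP6V0B rose (log2 0.72, edgeR adjusted p = 0.04995) and ATP6V0D2 fell (log2 -1.17, adjusted p = 0.0122). DESeq2 called neither of these. Between the knockouts ATP6V0E2 was higher in the CFIm68 knockout (log2 0.94, edgeR adjusted p = 0.0017). The reads of ATP6V0C lay at sites that are also listed under another gene.

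Of 10 genes for assembly and regulation of the pump, 4 were tested for site use. DMXL1, whose product belongs to the RAVE-like complex that joins V1 to V0, used its proximal site for 75.4 ± 2.13% in the CFIm68 knockout, 3.47 ± 0.982% in the CFIm59 knockout and 15% in the control. It changed to proximal in the CFIm68 knockout against the control (log2 4.10, edgeR adjusted p = 1.57e-05) and against the CFIm59 knockout (log2 6.41, edgeR adjusted p = 4.95e-12). Whether the pair of DMXL1 met the read minimum without the CFIm68 lines was not tested, so these calls are no support. Against the control, TFE3, a transcription factor of lysosomal genes, used an intron site more in the CFIm59 knockout (log2 3.23, edgeR adjusted p = 0.0275). That site took 23.2% and 3.33% in the CFIm68 lines, 26.9% and 16.7% in the CFIm59 lines and 2.67% in the control; the CFIm68 knockout gave log2 2.45 (edgeR adjusted p = 0.0613), and the knockouts overlapped (adjusted p = 0.294 between them). The level of TMEM199 rose in the CFIm59 knockout against the control (log2 1.74, edgeR adjusted p = 0.00263). DESeq2 called neither TFE3 nor TMEM199, and in levels of this list it called 0 in all 3 comparisons. Of 22 lysosomal protein genes, 13 were tested for site use. In the CFIm68 knockout against the control 3 changed to proximal (SCARB2, GAA and LIPA) and 1, GLA, to distal, against the background of 25.3% and 3.14% given above. The proximal sites of GAA and GLA are intron sites, 17143 and 3010 nt before the last exon site, so these are not changes within a last exon. GAA used its intron site for 12.5% and 12.3% in the CFIm68 lines, 6.67% and 8.82% in the CFIm59 lines and 2.22% in the control. Whether the lysosomal genes met the read minimum without the CFIm68 lines was not tested, so their calls to proximal are no support. SCARB2, a lysosomal membrane receptor, reached 91.2 ± 3.19% proximal use in the CFIm68 knockout and 18.4 ± 1.89% in the CFIm59 knockout, against 48.4% in the control; it changed in both knockouts (log2 3.57 and -2.04, edgeR adjusted p of 3.51e-09 and 0.00491). Between the knockouts SCARB2, LAMP1 and LIPA were more proximal in the CFIm68 knockout and 0 more distal (1 more distal at an unadjusted p under 0.05); 3 of 13 is below the background of 40.7%. DESeq2 called 1 to proximal there and 1 in the CFIm68 knockout against the control. For level, 21 lysosomal genes were tested: LAMP2, SCARB2 and CTSD rose in the CFIm68 knockout, while in the CFIm59 knockout LAMP1 and CTSD rose and LAMP2, GLA and LIPA fell, all against the control. The background was 1.59% higher and 2.03% lower in the CFIm68 knockout, and 6.98% higher and 6.87% lower in the CFIm59 knockout. Between the knockouts 7 were higher in the CFIm68 knockout and 1, LAMP1, was lower, where 9.46% and 10.3% of all genes were called. DESeq2 called 2 higher and 0 lower in the CFIm68 knockout, 1 higher and 3 lower in the CFIm59 knockout, and 4 higher and 1 lower between the knockouts. The median log2 level of the lysosomal genes was 0.19 in the CFIm68 knockout and -0.04 in the CFIm59 knockout against the control, and 0.39 between the knockouts. For V0 genes these medians were 0.08, -0.06 and 0.33, for the other V1 genes 0.14, -0.72 and 0.27, and for assembly and regulation 0.04, 0.10 and -0.13, against 0.02, 0.02 and 0.00138 over all genes.

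The genes whose site use was most like that of VMA21 were sought among 2806 with 50 or more reads at the pair in every library. Likeness was the largest difference in proximal share over the 5 libraries. SDC2 was closest, within 5.22 percentage points in every library, followed by LARP4B (5.31), SEH1L (5.36), DR1 (6.59) and CHMP2B (6.88). The pair of SDC2 lay 1027 nt apart; its proximal site took 85.5% and 73.3% in the CFIm68 lines, 12.2% and 16.7% in the CFIm59 lines and 25.7% in the control. In these 5 genes the pairs lay 1027 to 2263 nt apart, against 4203 nt in VMA21.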

How the data were processed

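The table the authors deposited holds read counts, not normalized, for each poly(A) site, with 1 column per library. Its site classes (last exon, intron, upstream exon) come from the file. The submitters' processing notes name hg19, TopHat2 2.1.0 and deepTools 2.4; how sites were called and how priming inside transcripts was handled are not given in the sources. Positions are printed as deposited. The sources state no counting by molecular identifiers, and intervals and floors therefore cover counting error alone. Sites listed more than once held their reads under the first gene only; 1 site of ATP6V1B2 is also listed under another gene.

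For each gene, the pair of sites with most reads was tested if the mean over libraries was at least 20 reads for the pair and 5 for each site. The quasi-likelihood test of edgeR 4.0.16 (in R 4.3.3) had library terms and site-by-group terms. Gene sums were filtered with filterByExpr and scaled by TMM, and CPM values are counts rescaled by library total after TMM. Single sites needed 10 or more reads. All 5 libraries entered each fit, p-values were adjusted by Benjamini-Hochberg over all features, and the threshold was 0.05, 2-sided. DESeq2 1.42.0, other minimums, other pairs, library totals and each knockout line left out were alternatives. Scripts were tested on simulated counts. The members and lists were chosen with earlier results of these data known; all 9 genes are named. P-values measure the spread between cell lines of 1 genotype.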

Additional observations from a re-analysis of the deposited data

Results flagged for a closer look

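The fitted log2 values of the knockouts against the control had opposite signs in 9 cases, each with a tested difference between the CFIm68 and the CFIm59 knockout (edgeR, adjusted p under 0.05). These cases came from 7 genes tested for site use and 9 tested for level. Such cases were not counted over all genes. Between the knockouts, 40.7% of all genes were called to proximal and 6.2% to distal. In level, 9.46% were called higher and 10.3% lower. The all-gene medians of site use against the control also had opposite signs, at log2 0.61 and -0.34. In site use, the log2 difference was 5.01 for VMA21, 5.85 for ATP6AP2, 6.44 for ATP6V1A, 4.78 for ATP6V1C1 and 2.17 for ATP6V1D. The value of ATP6V1A is fitted on CFIm59 lines without a proximal read and is no bound. That gene also met the read minimum only through the CFIm68 lines, so its call is no support. No direction from the control is shown for that gene in the CFIm59 knockout (edgeR adjusted p = 0.463), since the counts of 0 allow shares of up to 3.26% and 2.48%, against 0.599% in the control. Against the control, site use in the CFIm59 knockout did not pass for VMA21, ATP6AP2 and ATP6V1D either (edgeR adjusted p of 0.0619, 0.0522 and 0.235). Site use of ATP6V1D in the CFIm68 knockout did not pass (edgeR adjusted p = 0.0537). In gene level, the log2 difference was 1.15 for VMA21, 1.06 for ATP6AP1, 0.95 for ATP6V1D and 0.94 for ATP6V1E1. The levels of VMA21 and ATP6AP1 in the CFIm59 knockout did not pass against the control (edgeR adjusted p of 0.221 and 0.333). For levels, no value in the CFIm68 knockout passed against the control: that of ATP6V1D was log2 0.03 (edgeR adjusted p = 0.972) and ran between -0.22 and 0.27 over its alternatives, and that of ATP6V1E1 was log2 0.20 (edgeR adjusted p = 0.765), between -0.016 and 0.43, so neither shows a direction. Both knockouts were set against the same control library.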

How the results depend on the processing

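Of 883 values under the alternatives, 736 kept their direction and side of the threshold or stayed within 1.5 times. In the CFIm68 knockout against the control, VMA21 kept its call to proximal in all 9 alternatives (log2 3.40 to 4.203), and the count to proximal was 3 to 5 of the tested genes. In the CFIm59 knockout against the control, the count to distal was 1, but 0 with DESeq2, which gave ATP6V1C1 no adjusted p, and 0 with no minimum beyond 1 read, 2 with minimums of 100 and 20 reads, 2 with the outermost sites as the pair, 3 with last exon sites only and 0 to 3 when a line was left out. VMA21 there passed at log2 -1.21 with the stricter minimums and with last exon sites, and gave -1.38 to -1.004 without a line. Between the knockouts, the stricter minimums left 3 tested genes, all called to proximal. Last exon sites only reversed ATP6V1D, to log2 -0.75 against the control in the CFIm68 knockout and -0.20 between the knockouts. For levels in the CFIm68 knockout, library totals called 1 gene higher (VMA21) and turned ATP6AP2 to log2 0.16, with 433 of all genes higher and 120 lower, against 232 and 297. With no filter beyond 1 read, ATP6V1D turned to log2 -0.013. In the CFIm59 knockout the 3 lower genes became 1 with DESeq2 and 1 to 3 without a line. Between the knockouts the 5 higher genes became 3 with DESeq2 and 2 to 5 without a line, and the lower ones 0 to 1. For single sites, a minimum of 50 reads gave 2 lower in the CFIm68 knockout against the control, and 3 higher between the knockouts; without a line these counts were 1 to 2 and 5 to 7, and lower sites between the knockouts 2 to 4. Values near 0 changed sign without a line. Site use of ATP6V1E1 ranged over log2 -0.35 to 0.51 (CFIm68 knockout against the control) and -1.16 to 0.092 (between the knockouts), and that of ATP6V1B2 over -0.077 to 0.011 (CFIm59 knockout). In the CFIm68 knockout the levels of ATP6V1D and ATP6V1E1 ranged over -0.22 to 0.24 and -0.016 to 0.38, and in the CFIm59 knockout that of ATP6V1H over -0.45 to 0.031. The cause was not tested. DESeq2 called fewer of all genes: 752 to proximal in the CFIm68 knockout against 1483, and 14 to distal in the CFIm59 knockout against 316. Line numbers do not pair the libraries (correlations of -0.02 for levels and 0.03 for site use); with the line number as a replicate block, 5 genes were called to proximal between the knockouts, 5 higher and 1 lower in level (ATP6V1B2), and 9 sites higher and 4 lower. The single control could not be left out. Counts under 10 reads limit ATP6V1A, ATP6V1B2 and the weak sites.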
